A study of Mus musculus with 8 samples.

Results

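Levels of 10 genes that regulate or mark the hair matrix, Hoxc13, Foxn1, Msx1, Msx2, Dlx3, Gata3, Foxq1, Trps1, Gprc5d and Crym, were followed in whole mouse skin. They were taken by gene symbol from the deposited tables, in which all 10 are present in all 8 libraries, among 55418 genes in all. The study compared skin of wildtype mice with skin of mice of a genotype named hairloss at postnatal days 0, 16, 19 and 28. Each of these 8 groups is 1 library of total RNA. The sources used here give neither the mutated gene nor the strain, body site, sex or number of animals per library, so hairloss is used below as the name of a genotype and nothing more.

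The hair matrix is the dividing epithelium at the base of a growing follicle. Its daughter cells move up and become the layers of the hair shaft, which fill with hair keratins, and the inner root sheath around it. In mice the first coat grows after birth, the follicles then regress and rest in near synchrony over the back, and a new growth phase starts soon after weaning. Transcription factors of the homeobox, forkhead and GATA families act in the matrix and just above it. HOXC13 acts on hair keratin genes, MSX2 lies upstream of Foxn1, and mice without Foxn1, known as nude mice, form hairs that break at the skin surface.

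With 1 library per group no value below carries a replicate error, and differences between genotypes at 1 age carry no test. At each age a gene is called higher or lower where the difference reaches 2-fold on log2(FPKM + 1) and the gene reaches 1 FPKM in either library. FPKM is a level scaled to transcript length and to library size. What the ages allow to be tested is given after the levels. The depth of the libraries, estimated from the values, ran from 3.16e+07 to 4.37e+07 fragments, so that 3 fragments of a 1 kb transcript are worth between 0.0686 and 0.0949 FPKM. The Y-linked gene Ddx3y was listed at 0 in the hairloss libraries of days 0 and 28 and at 15.8 to 20.4 FPKM in the other 6, and Xist stood at 50.2 FPKM in hairloss and 0.166 in wildtype at day 28. In wildtype skin Xist and Ddx3y were present together at day 0 (51.3 and 16.3 FPKM) and day 19 (12.4 and 15.8 FPKM), while Xist in hairloss was 76.1 FPKM at day 0 and 0.115 at day 19. The sex of the animals behind the libraries therefore differed between the genotypes at days 0, 19 and 28, and its part in the results was not tested.

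In wildtype skin 8 of the 10 genes were high at days 16 and 28 and low at days 0 and 19, the same alternation as the hair shaft keratins. In hairloss skin these 8 genes were below wildtype at day 16, above it at day 19 and far below it at day 28. Trps1 and Gata3 took other courses. Levels of RNA from whole skin cannot tell fewer matrix cells from less RNA in each of them. For reference, the median of 15 shaft keratins was 1.18, 313, 2.17 and 343 FPKM in wildtype skin at days 0, 16, 19 and 28, and 0.414, 80.7, 30.8 and 0.0605 FPKM in hairloss skin.

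**Figure D1:**
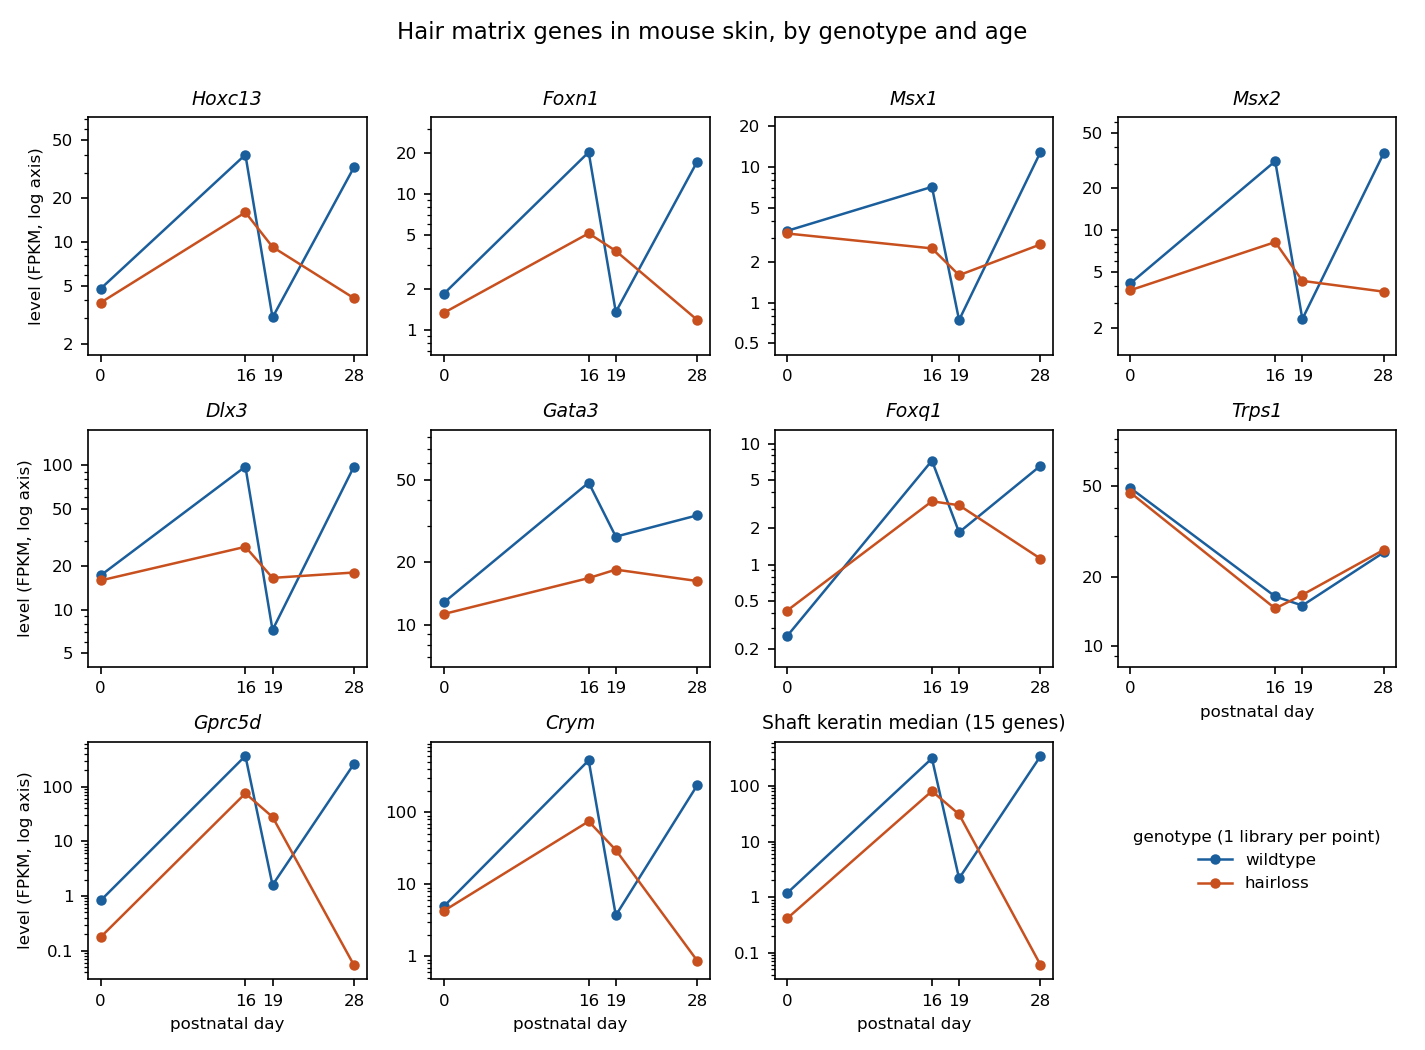
Level in FPKM (vertical log axis, scaled for each panel) against postnatal day for the 10 hair matrix genes and for the median of 15 hair shaft keratins, with wildtype in blue and hairloss in orange and 1 library per point. In wildtype the shaft keratin median is 313 FPKM at day 16, 2.17 at day 19 and 343 at day 28, and 8 of the genes dip with it at day 19, whereas Trps1 is highest at day 0 in both genotypes.

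Among the homeobox genes, Hoxc13, which is needed for a normal shaft, stood at 4.80, 40.0, 3.04 and 32.7 FPKM in wildtype skin at days 0, 16, 19 and 28. In hairloss skin it stood at 3.85, 16.05, 9.28 and 4.13 FPKM. The wildtype level was 13.1-fold lower at day 19 than at day 16, while the hairloss level was only 1.73-fold lower, and the curves of the genotypes crossed between these ages. By day 28 the wildtype library was 7.92-fold above the hairloss library.

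Msx2, whose loss in mice causes hairs to be shed and regrown in repeated waves, stood at 4.18, 31.4, 2.32 and 35.9 FPKM in wildtype and 3.73, 8.26, 4.35 and 3.64 FPKM in hairloss. Its relative Msx1 was low throughout, with 3.39, 7.15, 0.743 and 12.9 FPKM in wildtype and 3.24, 2.51, 1.59 and 2.69 FPKM in hairloss. In wildtype Msx1 was 1.81-fold higher at day 28 than at day 16, the largest such ratio of the 10 genes, and it was the only homeobox gene of the 4 that stood lower in hairloss at day 16 than at day 0. Dlx3, a factor of the matrix and of both the shaft and inner root sheath lineages, had the highest level of the 4 in every library. It had wildtype levels of 17.2, 97.7, 7.22 and 97.8 FPKM and hairloss levels of 15.9, 27.2, 16.6 and 18.1 FPKM. Dlx3 in hairloss skin thus never left the range of 15.9 to 27.2 FPKM, while the wildtype level moved 13.5-fold between days 16 and 19 and 13.5-fold back by day 28.

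Of the forkhead genes, Foxn1, the nude gene, stood at 1.85, 20.4, 1.36 and 17.4 FPKM in wildtype and 1.34, 5.16, 3.83 and 1.19 FPKM in hairloss. Of the 8 regulators it had the largest gap between genotypes at day 28, where wildtype was 14.6-fold higher. Foxq1, the gene mutated in satin mice and required for a normal medulla in the core of the shaft, stood at 0.258, 7.26, 1.86 and 6.58 FPKM in wildtype and 0.419, 3.35, 3.10 and 1.12 FPKM in hairloss. It differed from the other genes of the wildtype alternation in its depth of dip: its wildtype level at day 19 was 3.91-fold below day 16, against 9.62-fold for Msx1 and 13.1-fold to 15.0-fold for Hoxc13, Msx2, Dlx3 and Foxn1.

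The GATA-type genes stood apart. Gata3, known for its role in the inner root sheath and also in T cells and epidermis, stood at 12.8, 48.4, 26.6 and 33.7 FPKM in wildtype and 11.2, 16.8, 18.4 and 16.2 FPKM in hairloss. It was lower in hairloss at all 4 ages, and at day 19, when the other genes above were higher in hairloss, it was 1.44-fold higher in wildtype. Beside this difference the T cell genes Cd3g (15.0 FPKM in wildtype, 4.22 in hairloss) and Cd3e (4.24 and 1.74) and the sebaceous gland gene Awat2 (64.8 and 8.05) were also higher in the wildtype library of day 19. Of 10 listed genes of T cells and innate lymphoid cells, 9 were tested at that age. Of these, 2 (Cd3g and Trdc) were at least 2-fold lower in hairloss and 0 higher, against 5.76% and 6.53% of all genes tested. However, Cd4 (1.79 FPKM in wildtype, 2.90 in hairloss), Il7r (2.80 and 4.35) and Il1rl1 (2.41 and 5.42) stood higher in hairloss. So did Icos (0.321 and 0.729), which lay under 1 FPKM and was not tested. Of 8 sebaceous gland genes, 2 were lower (Awat2 and Dgat2) and 2 higher (Fabp5 and Elovl3), against the same 5.76% and 6.53%. Keratins of the epidermis differed too. Of the 6 listed, 5 were tested at day 16, where 3 were higher in hairloss (Krt1, Krt10 and Krt14) and 0 lower. Over all genes tested at that age, 5.34% were higher and 7.39% lower. At day 19, 3 of 5 tested were higher (Krt1, Krt5 and Krt14) and 1 lower (Krt15), against 6.53% and 5.76%. At day 28, 3 of 6 tested were higher (Krt1, Krt10 and Krt14) and 0 lower, against 5.6% and 6.42%. Krt1, made in the layers above the basal layer, stood at 76.4 FPKM in wildtype and 1914 in hairloss at day 16, and at day 28 the values were 82.1 and 2623 FPKM. Krt14, of the basal layer, stood at 618 and 4829 FPKM at day 19. What part these other cell types have in the levels of Gata3 or the other genes was not tested.

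Trps1, a GATA-type repressor that is mutated in a human syndrome with sparse hair, had wildtype levels of 48.8, 16.4, 15.0 and 25.5 FPKM and hairloss levels of 46.6, 14.5, 16.7 and 26.2 FPKM. The genotypes were within 1.13-fold of each other at each age. Its highest level was at birth, in both genotypes, and it was the 1 gene of the 10 that the size rule called at no age. The median of 20 cell cycle genes, which was also highest at days 0 and 28, was 18.5, 7.15, 4.30 and 22.8 FPKM in wildtype and 17.0, 13.8, 10.1 and 21.9 FPKM in hairloss. Pearson's r of log2(FPKM + 1) over the 8 libraries was 0.648 between Trps1 and that median, and -0.540 between Trps1 and the shaft keratin median. These are descriptions over libraries that share ages.

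The markers showed the widest ranges. Gprc5d, an orphan receptor found in the hair shaft lineage and in plasma cells, had wildtype levels of 0.826, 365, 1.58 and 261 FPKM and hairloss levels of 0.177, 75.3, 27.9 and 0.0543 FPKM. The hairloss value of day 28 corresponds to 3 fragments, with an exact 95% Poisson interval of 0.0105 to 0.149 FPKM that covers counting error only. The ratio of wildtype to hairloss at day 28 was 4805, with a counting interval of 1752 to 24831. The plasma cell genes Jchain and Mzb1 were at 0.0417 to 0.218 and 0.0507 to 0.642 FPKM across the 8 libraries. Wildtype Ighm was 8.04 and 16.9 FPKM and hairloss Ighm 9.94 and 10.8 FPKM at days 16 and 28, and the median of the 8 plasma cell genes listed was 0.903 to 1.36 FPKM over the wildtype and 0.322 to 1.59 FPKM over the hairloss libraries. Of the 8, 5 reached 1 FPKM at day 16 and 4 at day 28, and none of these was called between genotypes, where Gprc5d was. At day 19, where Gprc5d was higher in hairloss, 1 of 5 tested was also called higher, against 6.53% of all genes tested. This was Sdc1, at 115 FPKM in wildtype and 331 in hairloss. What part plasma cells have in the level of Gprc5d was not tested. Sdc1 and Xbp1, which epithelia also make, were high in all libraries (41.6 to 374 and 42.0 to 91.2 FPKM).

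Crym encodes mu-crystallin, a protein that binds thyroid hormone. It had wildtype levels of 4.98, 527, 3.72 and 238 FPKM and hairloss levels of 4.31, 75.1, 30.0 and 0.875 FPKM. At 527 FPKM it reached the highest level of the 10 genes in any library. In wildtype it was 2.22-fold higher at day 16 than at day 28, the largest such gap of the 10. Crym is also made in skeletal muscle, and muscle RNA differed between libraries: the wildtype medians of 10 muscle genes were 120, 587 and 234 FPKM for days 16, 19 and 28, and the hairloss medians 74.9, 297 and 651 FPKM. At day 16 the muscle difference ran in the same direction as that of Crym. That day 3 of 9 muscle genes tested (Myh4, Mylpf and Ckm) were called lower in hairloss, against 7.39% of all genes tested. At days 19 and 28 the muscle difference ran opposite to that of Crym. What part muscle has in the level of Crym was not tested.

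Where the reference table holds the promoter, the bases before the start were searched for short motifs on both strands, because genes of the set moved together with the shaft keratins. A window was present for Foxn1, Msx1, Msx2, Gata3 and Gprc5d and for 9 of the 15 shaft keratins. The homeobox core TAATTA was found in Msx2 and Foxn1, 2 of the 5, and in 1 of the 9 shaft keratins (Krt32). Its share over all 32851 promoter windows of the same length was 4.84%. The HOX13-type motif TTTATNG was found in 1 of the 5, Gprc5d, in 5 of the 9 shaft keratins (Krt31, Krt34, Krt40, Krt82 and Krt84) and in 9.81% of all windows. TATAAA was found in 1 of the 5 and 6 of the 9, against 12.4% of windows. In Gprc5d and in Krt84 the TTTATNG match overlaps a TATAAA match on the opposite strand, so the same bases count for both motifs. CTTTGA, the core bound by LEF1, was found in 0 of the 5 and 5 of the 9, against 13.8%, and AGATAA in none of either set, against 9.99%. The sequences of Msx2 and Foxn1, and of Gprc5d beside a pair of the shaft keratins it moved with, are given here. They are the 250 bases before the RefSeq start (GRCm38.p6, the same assembly as mm10), 5′ to 3′ on the gene's strand. Motif matches are in capitals.
Msx2 (chr13:53472781-53473030, minus strand): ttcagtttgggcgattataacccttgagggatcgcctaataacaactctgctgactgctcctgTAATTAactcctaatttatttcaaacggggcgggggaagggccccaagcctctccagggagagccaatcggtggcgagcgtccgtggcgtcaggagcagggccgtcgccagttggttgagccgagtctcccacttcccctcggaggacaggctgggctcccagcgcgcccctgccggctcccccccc
Foxn1 (chr11:78386609-78386858, minus strand): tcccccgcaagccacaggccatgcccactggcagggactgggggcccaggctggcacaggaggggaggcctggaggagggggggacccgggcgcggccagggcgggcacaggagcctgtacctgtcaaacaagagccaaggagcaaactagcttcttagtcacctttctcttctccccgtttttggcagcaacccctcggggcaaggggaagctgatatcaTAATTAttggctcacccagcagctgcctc
Gprc5d (chr6:135118284-135118533, minus strand): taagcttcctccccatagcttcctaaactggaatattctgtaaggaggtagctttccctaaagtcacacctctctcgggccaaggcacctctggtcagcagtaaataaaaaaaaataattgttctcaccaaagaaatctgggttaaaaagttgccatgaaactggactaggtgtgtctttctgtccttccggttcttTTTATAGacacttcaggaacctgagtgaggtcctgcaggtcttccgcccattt
Krt31 (chr11:100050552-100050801, minus strand): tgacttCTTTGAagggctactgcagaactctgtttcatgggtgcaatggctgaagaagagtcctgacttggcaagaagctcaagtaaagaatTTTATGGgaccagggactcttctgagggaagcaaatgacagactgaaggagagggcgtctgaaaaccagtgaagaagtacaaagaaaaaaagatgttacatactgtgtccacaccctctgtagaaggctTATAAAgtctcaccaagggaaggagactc
Krt34 (chr11:100041555-100041804, minus strand): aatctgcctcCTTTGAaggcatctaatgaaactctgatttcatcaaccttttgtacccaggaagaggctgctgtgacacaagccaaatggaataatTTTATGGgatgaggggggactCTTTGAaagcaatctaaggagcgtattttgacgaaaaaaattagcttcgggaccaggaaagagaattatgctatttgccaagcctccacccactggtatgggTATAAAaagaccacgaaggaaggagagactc
In Foxn1 the TAATTA lies 29 to 24 bases before the start, and in Msx2 187 to 182 bases before it. The TTTATNG match lies 53 to 47 bases before the start of Gprc5d, 158 to 152 before that of Krt31 and 154 to 148 before that of Krt34. In both keratins the capitals read TTTATGG, and in Gprc5d TTTATAG. A match of letters is not a bound site.

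The wildtype alternation was wider for the markers Gprc5d and Crym than for the 8 factors, while single keratins overlapped with the factors. From day 0 to day 16 the wildtype level was 2.11-fold (Msx1) to 28.1-fold (Foxq1) higher among the 6 homeobox and forkhead genes, 106-fold higher for Crym and 442-fold higher for Gprc5d, against 264-fold for the shaft keratin median and 11.4-fold for Krt35. From day 16 to day 19 it was 3.91-fold (Foxq1) to 15.0-fold (Foxn1) lower among the 6, 142-fold lower for Crym, 231-fold lower for Gprc5d and 144-fold lower for the shaft keratin median. Gata3 was 1.82-fold and Trps1 1.10-fold lower over these 3 days. The return to day 28 was 3.55-fold to 17.4-fold among the 6, 63.9-fold for Crym, 165-fold for Gprc5d and 158-fold for the keratins. In wildtype skin at day 19 the 15 keratins stood at 0.193% (Krt40) to 21.8% (Krt84) of their own day 16 level, with a median of 0.438%, and the 6 factors stood at 6.67% (Foxn1) to 25.6% (Foxq1) of theirs.

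Hairloss skin went through the day 16 to 19 interval with small steps. Over it the 6 factors were 1.08-fold (Foxq1) to 1.90-fold (Msx2) lower, Crym 2.50-fold and Gprc5d 2.70-fold lower, and the shaft keratin median 2.62-fold lower. From day 19 to day 28, where every wildtype level was higher, the hairloss levels divided. Gprc5d was 514-fold lower, Crym 34.4-fold lower and the shaft keratin median 510-fold lower. Foxn1 was 3.22-fold and Hoxc13 2.25-fold lower, Dlx3 moved from 16.6 to 18.1 FPKM, and Msx1 was 1.69-fold higher.

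**Figure D2:**
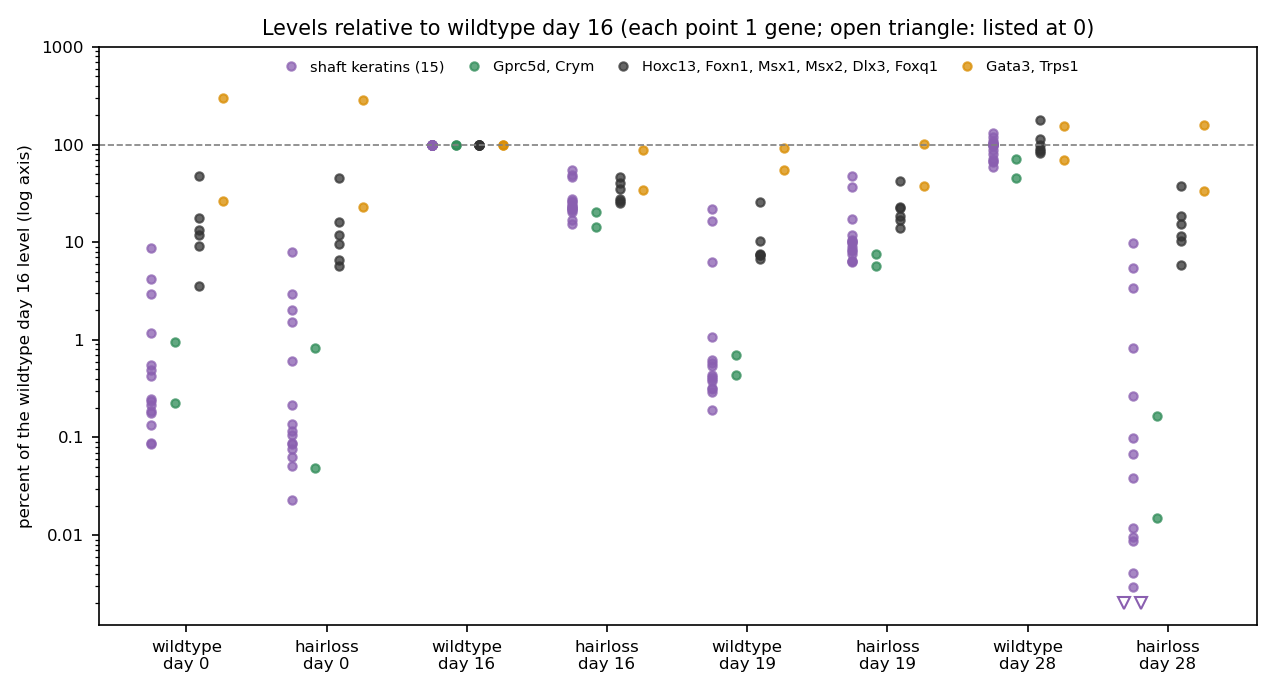
Level of each gene as a percentage of its own level in wildtype skin at day 16 (vertical log axis) in the 8 libraries, for 15 shaft keratins (purple), Gprc5d and Crym (green), 6 homeobox and forkhead genes (black), and Gata3 and Trps1 (orange). Each point is 1 gene and open triangles mark keratins listed at 0. In the hairloss library of day 28 the 6 factors lie between 5.84% and 37.6%, Gprc5d and Crym at 0.0149% and 0.166%, and the median keratin at 0.0388%.

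At day 28 in hairloss skin the 6 factors stood at a larger share of their level than the median shaft keratin, with some overlap between the sets. Relative to wildtype day 16, Hoxc13 stood at 10.3%, Foxn1 at 5.84%, Msx2 at 11.6%, Dlx3 at 18.5%, Foxq1 at 15.5% and Msx1 at 37.6%. Crym stood at 0.166% and Gprc5d at 0.0149%. The 15 keratins ranged from 0 (Krt34 and Krt40, both listed at 0) to 9.80% (Krt84), with a median of 0.0388%. An exact 0 can be a failed estimate in these files, since Tchh was listed at 0 in wildtype at day 16 and at 2076 FPKM at day 28, and Col1a1 at 0 in wildtype at days 19 and 28. Krt35, a shaft keratin known to switch on early in the lineage, stood at 12.7 FPKM in this library, the highest level of the 15, against 0.0273 FPKM for Krt31.

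The number of genes called at each age was set against all genes. At day 0, 8 of the 10 reached 1 FPKM in either library (Foxq1 and Gprc5d did not), 0 were lower in hairloss, where 1.58% of all genes tested were, and 0 were higher, where 1.49% were. The median difference of the 8 was -0.15 (log2), against -0.01 over all genes. Gprc5d, at 0.826 FPKM in wildtype and 0.177 in hairloss, lay under the level the rule asks for.

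At day 16, 8 of the 10 were lower in hairloss, all but Foxq1 and Trps1, against 7.39% of all genes tested, and 0 were higher, against 5.34%. The median difference was -1.64, against -0.08 over all genes. The smallest log2 difference among the 8 was that of Msx1 (7.15 FPKM in wildtype, 2.51 in hairloss) and the largest that of Crym, where wildtype was 7.02-fold above hairloss. With a pseudocount of 5 Msx1 lost the call (-0.69), and with a pseudocount of 0.1 Foxq1 gained it (-1.09). Of the shaft keratins, 13 of 15 were lower.

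At day 19 the direction turned. In hairloss 5 of the 10 were higher, Hoxc13, Foxn1, Dlx3, Gprc5d and Crym, against 6.53% of all genes tested, and 0 were lower, against 5.76%. The median difference was 0.86, against -0.00 over all genes. Gprc5d was 17.6-fold and Hoxc13 3.05-fold higher in hairloss, and the shaft keratin median was 14.2-fold higher. With a pseudocount of 5 in place of 1, the number higher in hairloss was 2, as Hoxc13 (0.83 on the log2 scale), Foxn1 (0.47) and Dlx3 (0.82) lost the call. Foxn1 also lost it when libraries were scaled to an equal coding sum without keratins (0.97).

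At day 28, 9 of the 10 were lower in hairloss, all but Trps1, against 6.42% of all genes tested, and 0 were higher, against 5.6%. The median difference was -2.55, against 0.00 over all genes. The ratio of wildtype to hairloss was 2.08 for Gata3, 4.80 for Msx1, 5.41 for Dlx3, 5.86 for Foxq1, 7.92 for Hoxc13, 9.84 for Msx2, 14.6 for Foxn1 and 272 for Crym. The ratio for the shaft keratin median was 5674. Gata3 lay just past 2-fold (-1.01 on the log2 scale) and lost the call with an equal coding sum (-0.89) or a pseudocount of 5 (-0.87), and Foxq1 lost it with a pseudocount of 5 (-0.92).

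**Figure D3:**
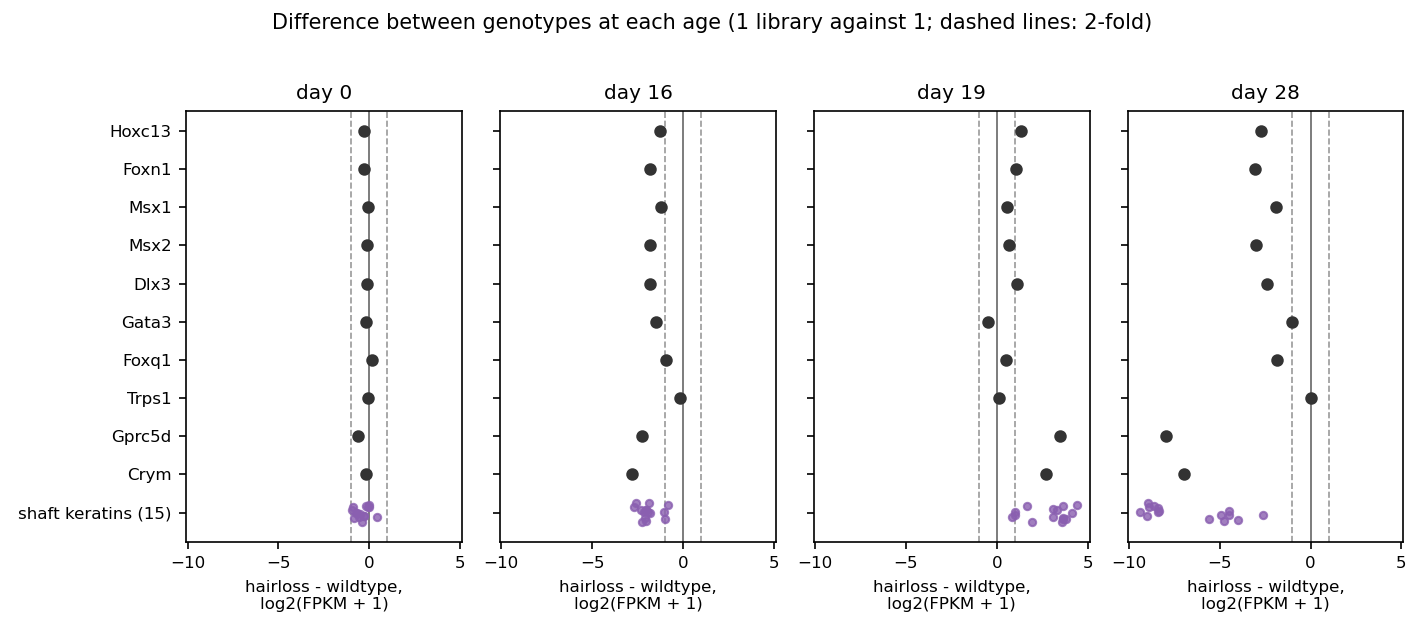
Difference between the hairloss and the wildtype library at each age on the log2(FPKM + 1) scale (horizontal axis) for the 10 hair matrix genes (black) and 15 shaft keratins (purple, spread vertically only for legibility). Dashed lines mark 2-fold. Points lie left of 0 at day 16 for all 10 genes, right of 0 at day 19 for 9 of them, and left of the lower dashed line at day 28 for 9 of them, with Trps1 near 0 at each age.

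The genotype difference over all ages was tested with limma, with age as a block and Benjamini-Hochberg adjustment over 18724 genes, 0.0374% of which were called (7 genes). None of the 10 passed, with adjusted p from 0.333 (Gata3) to 0.966 (Trps1), while 2511 genes had an unadjusted p under 0.05. Gata3 was lower in hairloss at 4 of 4 ages, by 0.79 ± 0.23 (SE) on the log2 scale, with an unadjusted limma p of 0.0166. For the 5 genes that are below wildtype at days 16 and 28 and above it at day 19 by the size rule, this average difference holds opposite directions, and that change of direction is part of the spread the test uses. Gprc5d gave -1.84 ± 2.05 and Hoxc13 -0.72 ± 0.70.

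Steps between ages were tested in the same fit, with the genotypes as the only repeats of an age. A difference between genotypes in the size of a step is therefore part of the spread the test uses. From day 16 to 19, for example, Hoxc13 was 13.1-fold lower in wildtype and 1.73-fold lower in hairloss. Trps1 was lower at day 16 than at day 0 by 1.57 ± 0.14 (SE, log2; adjusted p = 0.0201 by limma), in both genotypes, and it alone of the 10 passed in any step, where 8% of all genes tested were called in either direction and 4.42% were called lower. Its adjusted p was 0.0182 to 0.0352 over 6 alternatives of scaling, filter, pseudocount and fit. Foxq1 (2.17 ± 0.59, adjusted p = 0.0763 by limma) and Gata3 (1.19 ± 0.33, adjusted p = 0.0766) were higher at day 16 in both genotypes without passing. From day 16 to 19, where 0.016% of genes were called, the adjusted limma p of the 10 ran from 0.673 to 0.950. From day 19 to 28, where 0% of genes were called by limma and 1910 had an unadjusted p under 0.05, it ran from 0.360 (Trps1, higher by 0.68 ± 0.14) to 0.946.

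The order of the 8 libraries by each gene was compared with their order by the shaft keratin median, over the 28 pairs of libraries. Gprc5d ordered 27 of the 28 pairs as the keratins did, Foxn1 26, Msx2 and Crym 25 each, Foxq1 24, Hoxc13 23, Gata3 22, Dlx3 21, Msx1 19 and Trps1 10. Against Krt35 alone, an early shaft keratin, Msx2 ordered 28 of 28, Hoxc13 and Crym 26, Foxn1 25, and Gprc5d and Dlx3 24. Msx1 ordered 22, Foxq1 21, Gata3 19 and Trps1 13. All 4 homeobox genes, Crym and Trps1 thus shared more pairs with Krt35 than with the median keratin, and Foxn1, Foxq1, Gata3 and Gprc5d shared fewer. These keratin orders differ only in the place of wildtype day 19. By the median it lies above both day 0 libraries and hairloss day 28, and by Krt35 below them. The split of the genes rests on that library alone. Without the day 0 libraries, Foxn1, Msx2, Foxq1, Gprc5d and Crym ordered 14 of 15 pairs as the keratin median did. Hoxc13 and Dlx3 then ordered 13, Msx1 12, Gata3 11 and Trps1 7. Pearson's r with the keratin median over the 8 libraries, on log2(FPKM + 1), was 0.999 for Gprc5d, 0.982 for Crym, 0.965 for Hoxc13, 0.958 for Foxn1, 0.937 for Foxq1, 0.882 for Msx2, 0.826 for Dlx3, 0.742 for Gata3 and 0.611 for Msx1, as a description over libraries of the same skin and ages.

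Between the genes themselves, r over the 8 libraries was highest for Hoxc13 with Foxn1 (0.987), Msx2 with Dlx3 (0.985) and Gprc5d with Crym (0.984). Trps1 had r from -0.711 to 0.236 with the other 9. Each was also compared over 14290 protein-coding genes other than those with a keratin or keratin-associated protein symbol (Krt or Krtap). Genes of these families under other names were not screened out. The genes with the highest r were Gm11559 (0.998), Otop2 (0.998) and Ly6g6d (0.997) for Gprc5d. For Crym they were Dsg4 (0.995), a desmosomal cadherin of the shaft, Tgm6 (0.994) and Capn8 (0.992). For Foxn1 they were Gm47955, Calhm4 and Gm45618 (0.997 to 0.998), of which Calhm4 stood at 89.0 FPKM in wildtype and 6.32 in hairloss at day 16 (80.6 and 0.0421 at day 28). For Hoxc13 they were Stx6, Abhd13 and Actbl2 (0.997 each), and for Dlx3 they were Ctps, Baz1a and Foxe1 (0.991 to 0.993). Foxe1, a forkhead gene, stood at 6.43 FPKM in wildtype and 2.14 in hairloss at day 16. For Msx2 they were the ribosomal protein genes Rpl26, Rpl41 and Rpl27 (0.991 to 0.994), of which Rpl26 ran from 1892 to 2778 FPKM. For Gata3 they were Xkrx, Crip3 and Zfp341 (0.985 to 0.994), for Foxq1 Pak4, Slc9a3r1 and Bicdl2 (0.992 to 0.993), for Msx1 Pnrc2, Lbr and Dclk3 (0.989 to 0.991), and for Trps1 they included Ccdc14 (0.994) and Tube1 (0.990).

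Other genes of the matrix were examined as a list. Of 26 matrix genes outside the set, 25 could be called at day 16, and 3 of these were at least 2-fold lower in hairloss (Elf5, Lef1 and Dlx2), against 7.39% of all genes tested, and 0 higher. At day 19, 4 of 24 were higher (Runx1, Ovol1, Elf5 and Hr), against 6.53%, and 0 lower. At day 28, 4 of 25 were lower (Elf5, Lef1, Ovol1 and Bmp2), against 6.42%, and 0 higher. Elf5, an ETS factor, was in the list of each of these ages, with 0.555, 28.2, 1.17 and 25.3 FPKM in wildtype and 0.282, 7.67, 3.69 and 0.950 FPKM in hairloss. Lef1, the WNT pathway factor of the matrix and precortex, stood at 30.1 FPKM in wildtype and 5.50 in hairloss at day 28. Shh, a signal made by matrix cells of growing follicles, stood at 3.61 and 3.27 FPKM at the same age, and its target Gli1 at 8.63 and 16.8 FPKM, higher in hairloss.

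Of 22 paralogs of the 10 genes, 10 reached 1 FPKM at day 16 and 12 at day 28. At day 16, 4 of the 10 were lower in hairloss (Dlx1, Dlx2, Dlx4 and Gprc5a) and 0 higher, against 7.39% and 5.34% of all genes tested. At day 28, 4 of the 12 were lower (Dlx1, Dlx4, Gprc5a and Hoxc10) and 1, Gata2, higher, against 6.42% and 5.6%. Gprc5a stood at 9.60 FPKM in wildtype and 3.05 in hairloss at day 16, with 6.91 and 0.414 FPKM at day 28. The other genes of the group 13 Hox clusters, Hoxa13, Hoxb13 and Hoxd13, were at 0 to 0.0232 FPKM in all 8 libraries, against 3.04 to 40.0 FPKM for Hoxc13.

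The low level of the 6 homeobox and forkhead genes in hairloss skin at day 28 stood beside cell cycle genes near the wildtype level. Of 20 cell cycle genes 19 were tested at day 28 and 0 were called, against 6.42% of all genes tested called lower and 5.6% higher. The medians of the 20 were 22.8 FPKM in wildtype and 21.9 in hairloss. Whole skin RNA does not show which cells the cell cycle transcripts came from, and this was not tested. At day 19, 12 of 19 tested were higher in hairloss, against 6.53% of all genes tested, with medians of the 20 of 4.30 and 10.1. Of 8 pigment cell genes all 8 were lower in hairloss at day 28, against 6.42% of all genes tested. Of 8 inner root sheath keratins all 8 were also lower, with a median of 435 FPKM in wildtype and 21.6 in hairloss.

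The distance between libraries over the 10 genes, as the mean absolute difference in log2(FPKM + 1), gave a compact view of these courses. The closest of the 28 pairs were the newborn libraries of both genotypes (0.205). The next were hairloss day 28 with hairloss day 0 (0.412) and wildtype day 16 with wildtype day 28 (0.433). Hairloss day 28 with wildtype day 0 came next (0.544), then hairloss day 16 with hairloss day 19 (0.608) and hairloss day 28 with wildtype day 19 (0.773). Hairloss day 28 and wildtype day 28 were 3.09 apart. These distances depend on the pseudocount: hairloss day 28 lay 0.634 from hairloss day 0 and 0.937 from wildtype day 0 with a pseudocount of 0.1, and 0.232 and 0.274 with a pseudocount of 5. At 0.1 wildtype days 16 and 28 (0.449) were closer than hairloss day 28 and day 0, and in both settings hairloss day 0 was the library nearest to hairloss day 28. With Gprc5d and Crym left out, hairloss day 28 was again nearest to hairloss day 0 (0.307) and then to wildtype day 0 (0.372). In Trps1, the hairloss library of day 28 (26.2 FPKM) was nearer to wildtype day 28 (25.5) than to the newborn libraries (46.6 and 48.8).

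**Figure D4:**
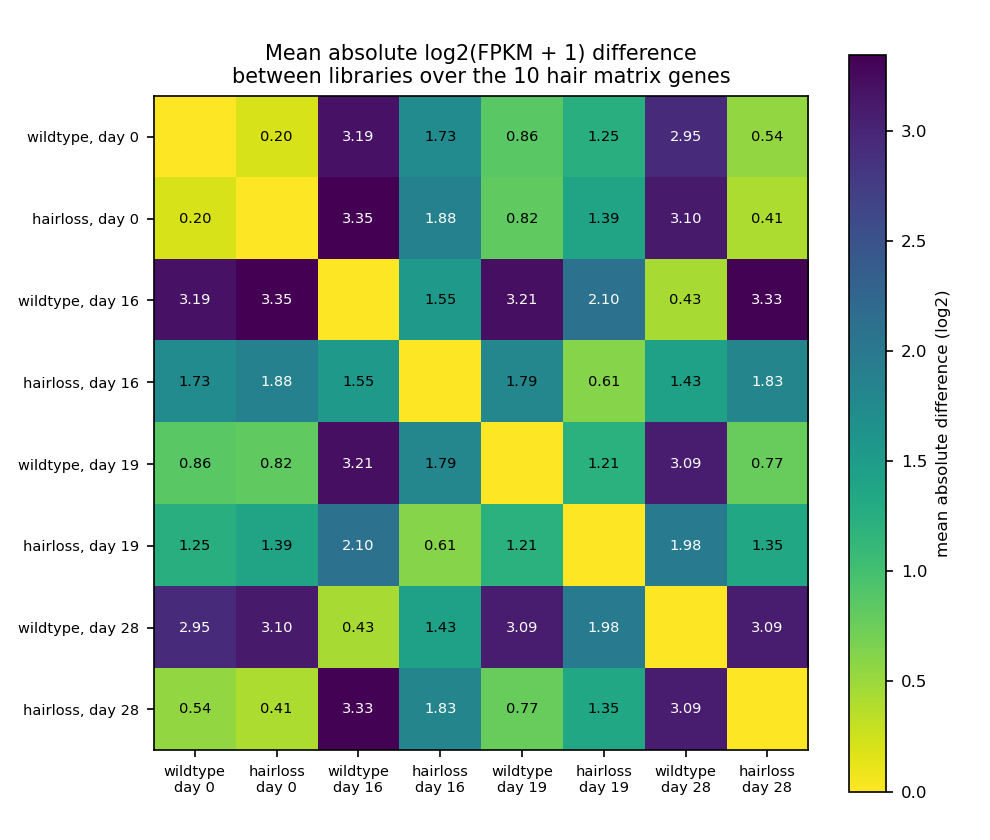
Mean absolute difference in log2(FPKM + 1) over the 10 hair matrix genes for each pair of the 8 libraries, with the value in each cell and darker colour for larger distance. Hairloss day 28 lies 0.41 from hairloss day 0 and 3.09 from wildtype day 28, and wildtype days 16 and 28 lie 0.43 apart.

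The genes lie at these places on mm10 (GENCODE M21). Hoxc13 is at chr15:102921103-102928814 on the plus strand and Dlx3 at chr11:95120119-95125296 on the plus strand. Msx1 is at chr5:37820485-37824583 and Msx2 at chr13:53466884-53473074, both on the minus strand. Foxn1 is at chr11:78357577-78386558 on the minus strand and Foxq1 at chr13:31556134-31560976 on the plus strand. Gata3 is at chr2:9857078-9890034, Trps1 at chr15:50654752-50890463, Gprc5d at chr6:135105991-135118283 and Crym at chr7:120186380-120202111, all on the minus strand. Gata3 is overlapped by 3 annotated genes. Of these, 4930412O13Rik on the other strand stood at 0.912 to 3.73 FPKM and 9230102O04Rik on the same strand at 0 to 0.724 FPKM. Foxq1 is overlapped by A530084C06Rik on the other strand. Trps1 is overlapped by Mir1907 on the same strand, listed at 0 in all 8 libraries. The sources used here do not say whether the values keep strand, and strand would not separate Gata3 from 9230102O04Rik. Reads of Gata3 and of its overlapping genes therefore cannot be told apart with certainty.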

How the data were processed

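The 8 libraries of mouse skin RNA cover 2 genotypes at 4 ages. RNeasy columns and TruSeq kits were used, per the labels' protocols. The submitters' processing notes name cutadapt, Cuffdiff and mm10 and no version. The authors deposited 1 value per Ensembl gene and library, read here as FPKM, an inference from the values and the naming of Cuffdiff. No source used here gives the aligner or Cuffdiff's scaling. The files name 21795 genes by symbol, and GENCODE M21 (same build) named 33387 more.

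Values were analysed as log2(FPKM + 1), a scale that understates the change of low genes. Genotypes at 1 age were compared by size alone (at least 2-fold, at least 1 FPKM in either library). The genotype difference over ages, with age as a block, and the age steps were tested in 1 fit with limma 3.58.1 (R 4.3.3, eBayes with trend and robust, two-sided, 3 residual degrees of freedom) over the 18724 genes that reach 1 FPKM in a library, with p-values adjusted by Benjamini-Hochberg and called under 0.05. The number of animals per library is not stated, and p-values measure only the spread between these libraries. Depth is the one at which low values of genes with only 1 transcript, of over 1000 bases, come out as whole fragments.

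The genes and all lists were chosen with earlier results of these data known. The text names all 10 genes, up to 4 genes of each other list with the largest genotype difference at the age described, and the 3 genes with the highest Pearson r to each of the 10, of which 1 is not reported here. Calhm4, Foxe1, Rpl26, Krt31, Krt34, Krt84, Shh, Gli1, Cd3e and others given outside this rule, such as all members of a short call list, were named after their values were seen. Distances between libraries were also chosen after seeing the data. Motifs were searched in the 250 bases before RefSeq starts, present for 5 of the 10 genes.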

Additional observations from a re-analysis of the deposited data

Results flagged for a closer look

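For 5 of the genes the difference between the libraries of the genotypes had one sign at days 16 and 28 and the other at day 19, each time by at least 2-fold, and with 1 library per group this change of direction was not tested. As hairloss minus wildtype on the log2(FPKM + 1) scale, Hoxc13 gave -1.264 at day 16, 1.347 at day 19 and -2.716 at day 28. Foxn1 gave -1.796, 1.032 and -3.07 at these ages, and Dlx3 gave -1.808, 1.096 and -2.374. Gprc5d gave -2.263, 3.485 and -7.956, and Crym gave -2.796, 2.718 and -6.993.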

How the results depend on the processing

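The alternatives covered the pseudocount, the scaling of libraries, the filter on low values, the limma settings and leaving out each age. The numbers of genes of the set lower in hairloss were 7 to 9 at day 16 and 7 to 9 at day 28, and the number higher at day 19 was 4 to 6, but 2 with a pseudocount of 5 against 5. Trps1 from day 0 to 16 stayed past the threshold in all 6 alternatives run for it, and no other gene of the set passed a limma test in any. The sign of a difference that had not passed turned in 5 cases. Over ages, Trps1 gave 0.0060 without day 0 and 0.039 without day 16, and Gprc5d gave 0.20 without day 28. From day 19 to 28, Gata3 gave -0.0011 with an equal coding sum, and Gprc5d gave -0.11 with a pseudocount of 0.1. The cause was not tested.

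Counts over all genes moved more. From day 0 to 16, limma called 670 genes higher and 827 lower, with an equal coding sum 590 and 1723, a scaling that moved the median of all genes from -0.05 to -0.23, and without the filter 168 and 288. The genotype called 7 genes, 3 with a pseudocount of 5, 2 without the filter, 2 without day 16 and 3 without day 28. From day 16 to 19 it was 3 genes, 1 with a pseudocount of 5 and 1 without the filter, and from day 19 to 28 it was 0, and 5 with a pseudocount of 0.1. The low values of Gprc5d are limited by depth. The fit over ages already pairs the genotypes by age, and no group has replicate numbers to pair.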
